A study of Mus musculus with 20 samples.

Results

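The genes described here are 44 interferon-stimulated genes, measured by RNA-seq in microglia from the brains of mice that overexpress α-synuclein and of wild-type mice. The genes were taken by symbol from a list of transcripts known to be induced by interferons. All 44 were found among the 24062 genes counted. The choice was made with earlier results of these data known, so shares of the 44 genes given below are descriptions and no test of the set. Transgenic mice, called mThy1-α-synuclein or mThy1 mice, carried full-length wild-type human α-synuclein under the murine Thy-1 promoter, which is active mainly in neurons, on the X chromosome. Both genotypes were male and shared the B6D2F1/J background, a hybrid of the C57BL/6 and DBA/2 strains. The groups were 6 mThy1 and 4 wild-type mice at 7 months of age, and 5 mThy1 and 5 wild-type mice at 10 months. Each library came from the whole brain of 1 mouse. The sample labels describe the cells as IBA1-selected, whereas the study's methods describe CD11b magnetic beads, and both markers are shared by microglia, other macrophages and, for CD11b, neutrophils and monocytes.

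Reads counted on genes ranged from 33404096 to 77806399 per mouse. Thy1, the gene whose promoter drives the transgene, gave normalized counts of 392.5 to 1298 (mThy1) against 17.7 to 47.6 (wild-type) at the younger age. At the older age the ranges were 1117 to 1741 and 9.41 to 32.4, so every library matched its label. A normalized count is a read count divided by a scaling factor for the depth of that library. The 12 microglial markers examined, among them Cx3cr1, P2ry12 and Tmem119, were detected in every mouse. Markers of neutrophils, monocytes and border macrophages were also above 0 in every mouse, and their values are given beside the results they move with.

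Interferons are cytokines released when a cell senses viral or misplaced nucleic acid. Type I interferons bind the receptor pair IFNAR1 and IFNAR2, whose kinases phosphorylate transcription factors of the STAT family, STAT2 among them. With IRF9 these form a complex that enters the nucleus, binds the interferon-stimulated response element in promoters and switches on antiviral genes, some of which feed back on the pathway. Type II interferon acts through its own receptor pair, IFNGR1 and IFNGR2. In the brain, microglia keep a low baseline of this program, and a distinct interferon-responsive microglial state is known from aging, infection and neurodegeneration.

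Promoters of some of the genes carry the core of the interferon-stimulated response element. The genes were chosen as induced by interferons, so its share among them is a description and is not independent of the choice. Promoter windows of 250 bases before to 50 bases after the gene start, from RefSeq on GRCm38.p6, were present for 34 of the 44 genes. The core of the interferon-stimulated response element, searched on either strand as GAAA, any 2 bases and GAAA again, occurred in 46.5% of the 43 windows of these genes and in 3.44% of all 32851 windows. A longer form with C as the next base, whose matches are all matches of the first, occurred in 39.5% and 0.819%. For comparison, the core of the gamma-activated site, TTCNNNGAA on either strand, occurred in 20.9% and 8.30%. By gene, 18 of the 34 had the response element core in the window and 14 had it before the start. Of 28 matches 22 lay before the start, and the median distance of a match's centre from the start was -57.5 bases. Of the 15 genes that passed the test in any comparison below, 14 had a window and 4 of these held the match before the start. Irf1, Irf9, Herc6, Trim25, Oasl1, Isg20, Slfn2 and Ifi35 held none in their windows. The following 60-base stretches are shown because they hold the match in genes whose values are described next. Genes without a match are not shown. They run 5′ to 3′ on the strand of the gene, capitals mark the match, and TTTC at its beginning marks a match that reads on the other strand.
Isg15 (chr4:156200856-156200915, minus strand): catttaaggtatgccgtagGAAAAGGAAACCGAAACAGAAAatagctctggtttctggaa
Bst2 (chr8:71537565-71537624, minus strand): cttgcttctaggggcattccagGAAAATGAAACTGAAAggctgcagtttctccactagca
Ifit1 (chr19:34640770-34640829, plus strand): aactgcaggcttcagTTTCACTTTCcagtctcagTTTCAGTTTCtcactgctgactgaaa
Ifit3 (chr19:34583365-34583424, plus strand): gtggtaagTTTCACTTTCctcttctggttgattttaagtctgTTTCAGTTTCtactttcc
Rsad2 (chr12:26456538-26456597, minus strand): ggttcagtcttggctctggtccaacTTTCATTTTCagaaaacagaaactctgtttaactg
Oas3 (chr5:120777700-120777759, minus strand): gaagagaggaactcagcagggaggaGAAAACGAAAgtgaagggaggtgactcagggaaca
Slfn8 (chr11:83020824-83020883, minus strand): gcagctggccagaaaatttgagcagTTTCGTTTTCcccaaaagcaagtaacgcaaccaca
Isg15 held 3 overlapping matches in 1 run, Bst2 held 2 overlapping matches, and Ifit1 and Ifit3 held 2 separate ones each. The 2 matches counted for Slfn8 are 1 site seen from 2 annotated gene starts. A match is a stretch of letters and says nothing of binding in these cells.

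**Figure D1:**
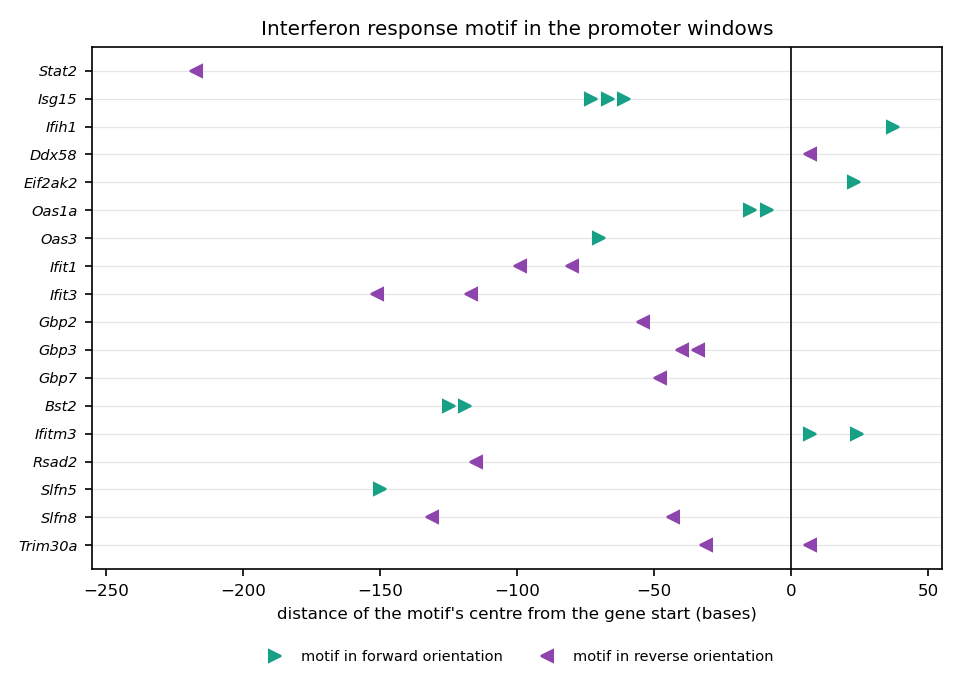
Position of the response element core in the promoter windows of the 18 genes that held one. The x axis is the distance of the centre of the match from the gene start in bases, triangles give the orientation, and 22 of 28 matches lie left of the start at 0.

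In wild-type microglia at 7 months the 44 genes spanned a wide range of expression. Per kilobase of merged exon, Ifitm3, a membrane protein that blocks viral entry, had the highest level at 6005 normalized counts. It was followed by Lgals3bp, a secreted galectin-binding glycoprotein, at 2931, and Trim30a, a TRIM family regulator of innate signaling, at 2554. Schlafen genes Slfn2 and Slfn8 had 1944 and 1667 per kilobase and Bst2, the tetherin that holds budding virions at the membrane, 1576. The lowest levels were those of the synthetase-related genes Oas3 (56.5) and Oasl1 (32.2) and of Ifi44 (10.9). All 44 genes passed the filter on low values at both ages. It required 4 mice at 7 months, or 5 mice at 10 months, to reach a normalized count of 10.

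At 7 months the comparison asked whether the genes differ between mThy1 and wild-type mice at the younger of the ages studied. The IFIT genes, whose proteins bind foreign RNA, had higher levels in mThy1 mice, and of these Ifit3 passed the test. Among all 44 genes, 1 was higher and 0 were lower at an adjusted p under 0.05 (limma with Benjamini-Hochberg adjustment over all genes tested), a share of 2.27%. Of all 13887 genes tested, 4.93% passed, 2.23% as higher and 2.7% as lower. At an unadjusted p under 0.05, 11 of the 44 genes were higher and 2 lower, against 10.7% and 10.6% of all genes (21.3% in either direction). The log2 fold change was above 0 in 31 genes and below 0 in 13, where 50.2% and 49.8% of all genes lay, with a median of 0.16 beside 0.0009 over all genes. The count of higher genes was 2 without mThy1 replicate 2 or 4 or wild-type replicate 2, and 3 without mThy1 replicate 5 or 6. Lymphocyte marker sums were 423 to 860 in mThy1 mice and 1255 to 2308 in wild-type mice at this age. Neuron markers were lower in 9 of 10 cases (4 passed) and oligodendrocyte markers in 8 of 9 (3 passed). Endothelial markers were lower in 9 of 10 (2 passed). Astrocyte markers were lower in 8 of 10 (4 passed, and 1 passed as higher). The astrocyte sums overlapped and were not lower, with medians of 11519 in mThy1 and 10176 in wild-type mice. Neutrophil marker sums were 56290 to 82026 in mThy1 replicates 1 to 3, 77197 in wild-type replicate 4 and 185524 to 285839 in the other mice. With lymphocyte markers as a covariate 0 of the 44 genes passed, and with neutrophil markers 2 were higher. In bulk RNA, fewer cells that express a gene and less RNA per cell cannot be told apart, here and in all that follows.

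Ifit3 (chr19:34583531-34588731, a protein-coding gene; all gene positions are on GRCm38) had normalized counts of 1521 to 2242, with a median of 1802, in the 6 mThy1 mice. The wild-type mice had 1395, 1241, 1416 and 1160.0. Every mThy1 mouse was above every wild-type mouse. Its mean was 1853 ± 267 (SD, n = 6) against 1303 ± 123 (SD, n = 4), a 1.41-fold difference on the scale of log2(value + 1), with a log2 fold change of 0.50, SE 0.11, adjusted p = 0.0143 in the limma test across all genes. The adjusted p was 0.147 when the spread was estimated from all 20 mice and 0.244 with lymphocyte markers as a covariate.

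Neighbors of Ifit3 in the chromosome 19 cluster had log2 fold changes of similar size. For Ifit2 (chr19:34550694-34576419) the mThy1 mice ranged from 1435 to 2579, with a median of 1774, and the wild-type mice had 1402, 1327, 1294 and 1239. The genotypes did not overlap, with a log2 fold change of 0.51, SE 0.14, adjusted p = 0.0519. Ifit1 (chr19:34640871-34650009) ranged from 367 to 677, with a median of 524, in mThy1 mice and had 415, 279.7, 392.1 and 333 in wild-type mice. Here 1 mThy1 mouse fell within the wild-type range, and the log2 fold change was 0.57, SE 0.17, adjusted p = 0.0639. Neither Ifit1 nor Ifit2 passed the test.

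In 5 of the 44 genes every mThy1 mouse was above every wild-type mouse at 7 months, and in 0 below, against 3.55% and 3.97% of all genes. Beside Ifit2 and Ifit3 these were Isg15, Ddx58 and Ifi35. Isg15 encodes the ubiquitin-like modifier that is conjugated to proteins after interferon, and ranged from 190.3 to 318, with a median of 196, in mThy1 mice against 168, 172, 187 and 179.8 in wild-type mice. Ddx58 encodes RIG-I, a cytoplasmic sensor of viral RNA, and ranged from 2572 to 2915, with a median of 2753, against 2429, 2545, 2237 and 2474. Ifi35, a regulator of RIG-I and innate signaling, ranged from 788 to 854, with a median of 828.7, against 719, 687, 685 and 689.6. None of the 3 passed the test, with adjusted p = 0.321, 0.13 and 0.0967 in limma.

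An intact protein of the dynamin-like GTPase gene Mx1 inhibits influenza and related viruses. Mx1 ranged from 430.4 to 769.6, with a median of 537, in mThy1 mice and had 355, 456, 283 and 368 in wild-type mice. Its log2 fold change of 0.57 and that of its neighbor Mx2 (0.60) were of the size seen for the IFIT genes, at adjusted p = 0.0661 and 0.101 in limma. The annotation marks Mx2 as a polymorphic pseudogene. Usp18, the protease that removes ISG15 from proteins and damps the type I receptor, had a log2 fold change of 0.56, SE 0.19, adjusted p = 0.105. Herc6, the main mouse ligase for ISG15, had 0.29, SE 0.09, adjusted p = 0.0647. None of these passed the test. The transcription factors Irf1, Irf7, Irf9 and Stat2 had log2 fold changes of 0.02, 0.05, 0.12 and 0.19. The 5 genes of the oligoadenylate synthetase family lay between -0.12 and 0.17. Active synthetases of this family switch on the RNA-cutting enzyme RNase L through their product, whereas Oasl1 is only synthetase-like.

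At 10 months the comparison asked the same question at the older age. Levels of the genes were mostly lower in mThy1 mice, and 10 passed the test. Interferon transcription factors Irf1 and Irf9, Isg15 and its ligase Trim25, the sensor Ddx58, the synthetase-like gene Oasl1, the membrane restriction factors Bst2 and Ifitm3, the exonuclease gene Isg20 and Slfn2 were lower. None was higher. The 10 genes were 22.7% of the 44, beside 7.67% of all 13627 genes tested, 3.79% as lower and 3.88% as higher. In 38 of the 44 genes (86.4%) the log2 fold change was below 0 and in 6 above 0, where 50.5% and 49.5% of all genes lay, and its median was -0.52 beside -0.003 over all genes. At an unadjusted p under 0.05, 26 genes were lower and 1, Slfn8, was higher, against 12% and 11.5% of all genes (23.5% in either direction). Without 1 mouse the count of lower genes was 5 or 6 in 7 of 10 cases: 5 without mThy1 replicate 3 or 5 or wild-type replicate 1, 2 or 5, and 6 without mThy1 replicate 4 or wild-type replicate 3. It was 12 without wild-type replicate 4.

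**Figure D2:**
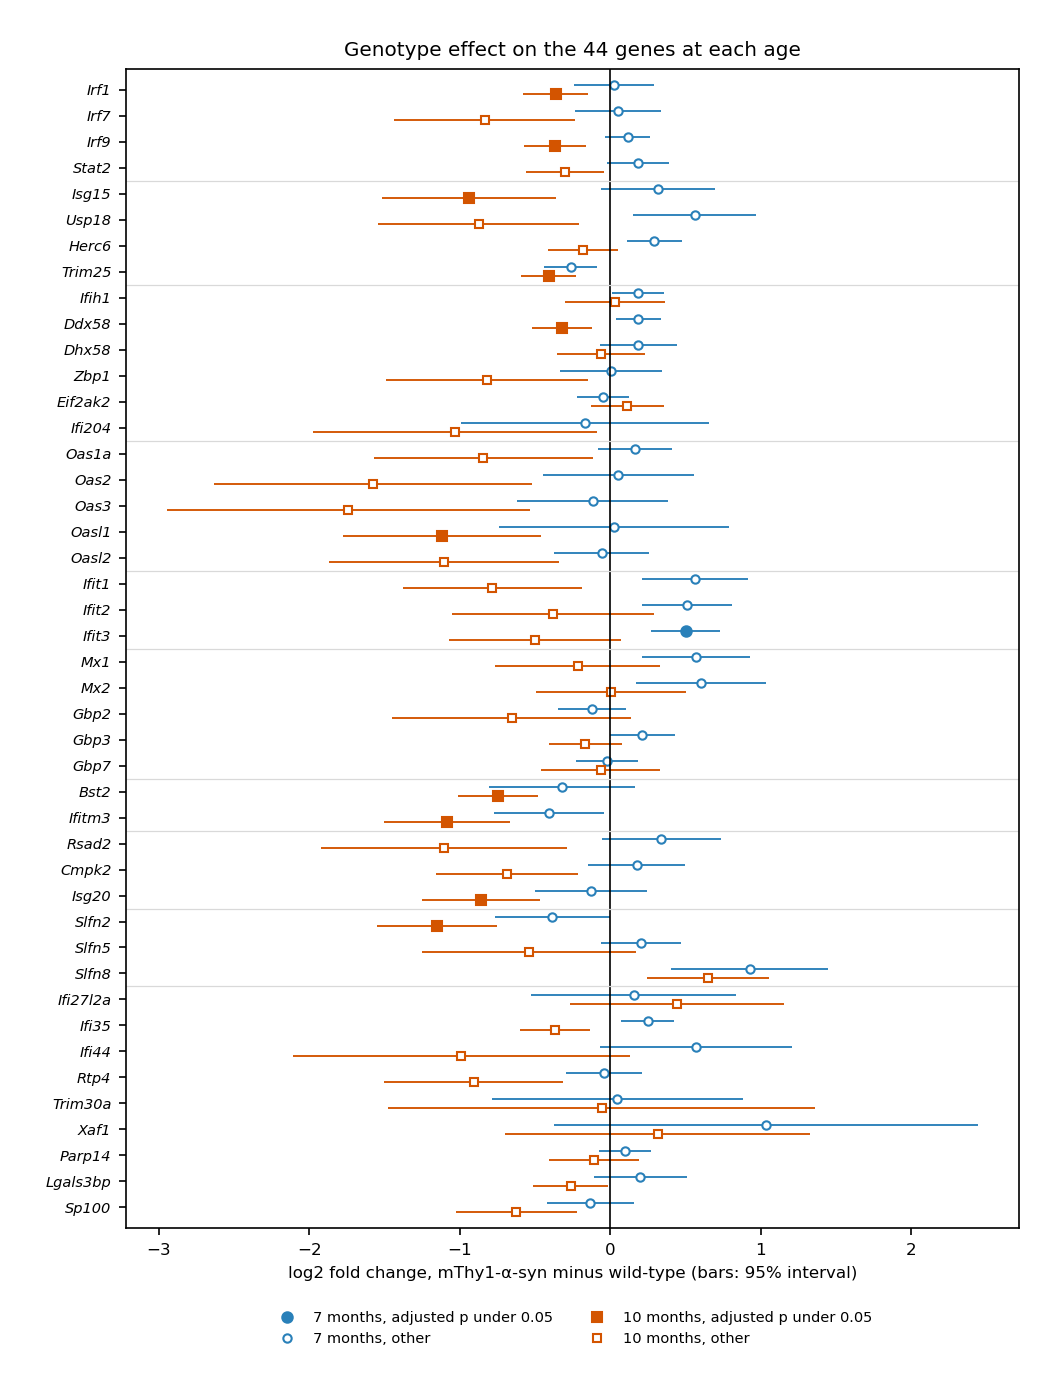
Genotype effect on each of the 44 genes, grouped by role. The x axis is the log2 fold change of mThy1 over wild-type mice on the scale of log2(normalized count + 1), circles are 7 months (6 against 4 mice) and squares 10 months (5 against 5 mice), bars are 95% intervals and filled symbols have an adjusted p under 0.05. At 7 months 31 genes lie right of 0 and at 10 months 38 lie left of it.

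Markers of other myeloid and lymphoid cells were also lower in the mThy1 mice at 10 months. Of the neutrophil markers 5 of 5 were lower and 2 passed the test (Retnlg and Csf3r), with sums of 69451 to 151297 in mThy1 and 134592 to 286194 in wild-type mice. All 6 monocyte markers were lower and 3 passed, with sums of 14933 to 24910 against 24906 to 48817. All 8 border macrophage markers were lower and 4 passed (Mrc1, Pf4, F13a1 and Cbr2), with sums of 19568 to 25096 against 26491 to 36611. The 6 lymphocyte markers tested were lower and 3 passed (Nkg7, Gzma and Klrb1c), with sums of 382 to 699 against 838 to 1955. Microglial markers were higher in 10 of 12 cases and 4 passed.

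Because these markers moved with the genotype, their mean log2 level was entered as a covariate. With neutrophil, lymphocyte or border macrophage markers, 0 of the 44 genes passed the limma test, and the number of all genes that passed fell from 1045 to 19, 14 and 4. The median log2 fold change of the 44 genes was -0.38, -0.39 and -0.41 with the 3 covariates, against -0.52 without. Since the markers move with the genotype, a genotype effect within microglia and a different share of other cells cannot be told apart here.

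Both membrane restriction factors were lower in mThy1 mice without overlap. Ifitm3 (chr7:141009586-141010770) had normalized counts of 2889.7, 3501, 3007, 1827 and 2257 in the mThy1 mice and 5619, 5989, 5894, 3950.1 and 6944 in the wild-type mice. Means were 2696 ± 658 and 5679 ± 1088 (SD, n = 5 each). Every mThy1 mouse was below every wild-type mouse, at a log2 fold change of -1.09, SE 0.19, adjusted p = 0.00937 in limma. Bst2 (chr8:71534255-71537456) had 1302, 1533, 1293, 1089 and 1039 in mThy1 and 2020.5, 2069.9, 2034, 1699 and 2677 in wild-type mice. Again the genotypes did not overlap, with a log2 fold change of -0.75, SE 0.12, adjusted p = 0.00422. At 7 months the log2 fold changes were -0.41 for Ifitm3 and -0.32 for Bst2, and neither passed the test (adjusted p = 0.187 and 0.434 in limma). In mThy1 mice of that age Ifitm3 ranged from 2448 to 3632, with a median of 2900.4, and Bst2 from 769 to 1722, with a median of 1148. The wild-type mice had 4956, 3957, 4629 and 2745 for Ifitm3 and 1389.5, 1073, 1936 and 1295 for Bst2, so that the genotypes overlapped in both.

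Slfn2 (chr11:83065112-83070678), a Schlafen family member that keeps T cells and monocytes quiescent, had 2093, 2222, 1804, 1415 and 1685 in mThy1 mice and 4955, 4653, 4309, 2548 and 4301 in wild-type mice at 10 months. The highest mThy1 mouse lay below the lowest wild-type mouse, wild-type replicate 4, which stood apart from its group. The log2 fold change was -1.15, SE 0.18, adjusted p = 0.00583 in limma. Isg20 (chr7:78913424-78920396), which degrades single-stranded RNA, had 173, 207, 163, 123 and 106 in mThy1 mice and 291, 274, 256, 235 and 315 in wild-type mice. Its groups did not overlap, at a log2 fold change of -0.86, SE 0.18, adjusted p = 0.0131. Wild-type replicate 4 was the lowest of its group in Ifitm3, Bst2, Slfn2 and Isg20, and it also had the lowest sums of neutrophil (134592), monocyte (24906) and border macrophage markers (26491) among the wild-type mice of 10 months. At 7 months wild-type replicate 4 was likewise the lowest in Ifitm3, Slfn2 and Isg20 and in neutrophil and monocyte markers (77197 and 14155). Slfn2 ranged from 1870.1 to 3209, with a median of 2311, in mThy1 mice of 7 months and was 4010.5, 3048, 3533 and 2348 in wild-type mice, a log2 fold change of -0.38, SE 0.18, adjusted p = 0.235. For Isg20 the values were 174 to 220.3, with a median of 184, against 207, 232, 253 and 152, with -0.13, SE 0.17, adjusted p = 0.708. Ifitm3 passed at 7 months without wild-type replicate 4 (-0.41 became -0.58, adjusted p = 0.0197). The difference between the ages did not pass for Ifitm3, Bst2, Slfn2 or Isg20, with adjusted p = 0.145, 0.364, 0.0978 and 0.0748 in limma. Without 1 mouse it passed in 1 of 20 fits each for Slfn2 (0.0221 without wild-type replicate 4 of 10 months) and Isg20 (0.0417 without mThy1 replicate 2 of 10 months) and in 0 for the others.

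Trim25 (chr11:88999376-89020293) encodes a ligase that attaches ISG15 or ubiquitin and activates RIG-I. It had 2414, 2288, 2247, 1983 and 2097 in mThy1 mice and 3340.0, 3153, 2511, 2699 and 2973 in wild-type mice. The groups did not overlap, and the log2 fold change was -0.41, SE 0.09, adjusted p = 0.0126 in limma. At 7 months it was -0.26, SE 0.08, adjusted p = 0.0824, also below 0, and the difference between the ages did not pass the test (adjusted p = 0.512). Of the 10 lower genes, Bst2, Ifitm3, Isg20, Slfn2 and Trim25 passed the test in all 10 fits that left out 1 mouse. With border macrophage markers as a covariate their log2 fold changes were -0.33 (Bst2), -0.49 (Ifitm3), -0.41 (Isg20), -0.47 (Slfn2) and -0.36 (Trim25), and none passed (adjusted p = 0.996 in limma for each).

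The other 5 lower genes were close to the cutoff. Irf1 (chr11:53770014-53778374), an activator of interferon and of its targets, had 3099.7, 2643, 2469.9, 2528 and 2591 in mThy1 mice and 3743, 4276, 3280.5, 2894 and 3070.4 in wild-type mice. Its mThy1 replicate 1 was above 2 of the wild-type mice, and the log2 fold change was -0.36, SE 0.10, adjusted p = 0.0434 in limma. Irf9 (chr14:55603571-55610030), the DNA-binding part of that nuclear complex, had 2798, 2434, 2275, 2179 and 1975 against 3357, 2869, 2856, 2638 and 3289.6. Only the mThy1 mouse of highest level reached the wild-type range, and the log2 fold change was -0.37, SE 0.10, adjusted p = 0.0333. For Isg15 (chr4:156199424-156200818) the values were 235, 213, 200.1, 138 and 78.3 in mThy1 mice and 277, 341, 328, 228 and 404 in wild-type mice. The lowest was mThy1 replicate 5, the ranges met at a single mouse of each genotype, and the log2 fold change was -0.94, SE 0.27, adjusted p = 0.0488.

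Ddx58 (chr4:40203773-40239828) had 2683, 2436, 2254, 1859 and 2031 in mThy1 mice and 3028, 2882, 2544, 2798 and 2734 in wild-type mice. A single mThy1 mouse reached the wild-type range, at a log2 fold change of -0.32, SE 0.09, adjusted p = 0.0488 in limma. Oasl1 (chr5:114923240-114937915), which restrains translation of Irf7, had 81.0, 88.6, 66.3, 28.3 and 61.2 against 194, 162, 112, 87.4 and 136. It had the lowest counts of the 10 genes, a single mThy1 mouse reached the wild-type range, and the log2 fold change was -1.12, SE 0.31, adjusted p = 0.0413. With 1 mouse left out at a time, Irf1, Isg15 and Oasl1 missed the cutoff in 8 of 10 fits, Irf9 in 7 and Ddx58 in 9, with limma's adjusted p up to 0.102, 0.111, 0.0968, 0.078 and 0.113 in that order. The direction did not change in any of these fits. The fits that kept the call left out mThy1 replicate 1 (Irf1, Isg15, Irf9 and Ddx58), mThy1 replicate 2 (Irf9 and Oasl1) or wild-type replicate 4 (Irf1, Isg15, Irf9 and Oasl1).

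All 5 genes of the oligoadenylate synthetase family had a log2 fold change below 0 at an unadjusted p under 0.05 in limma. The median was -1.12, and only Oasl1 passed the adjusted test. Oas2 (chr5:120730333-120749853) had 443, 351, 254, 66.2 and 141 in mThy1 mice and 694, 661, 511, 496 and 775 in wild-type mice. The genotypes did not overlap, and the log2 fold change was -1.58, SE 0.47, adjusted p = 0.0762 in limma. Oas3 (chr5:120753098-120777661) had 601, 468, 368, 77.9 and 199 against 1072, 1183, 1058, 548 and 929. Its log2 fold change of -1.74, SE 0.53, adjusted p = 0.0868 was the largest of the 44 genes. A single mThy1 mouse reached the wild-type range of Oas3, and in both genes mThy1 replicate 4 was the lowest. Oas1a and Oasl2 had log2 fold changes of -0.84 and -1.10, at adjusted p = 0.153 and 0.0861.

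The antiviral enzyme gene Rsad2, which makes a chain-terminating nucleotide, had a log2 fold change of -1.11, SE 0.36, adjusted p = 0.103 in limma, and its genomic neighbor Cmpk2, a mitochondrial nucleotide kinase, -0.69, SE 0.22, adjusted p = 0.0776. Irf7, which amplifies type I interferon production, had 685, 755, 546, 308 and 353 in mThy1 mice and 1003, 924, 754, 638 and 1247 in wild-type mice. The lowest mThy1 mice were replicates 4 and 5, and the log2 fold change was -0.83, SE 0.27, adjusted p = 0.0914. Rtp4, a chaperone for receptors that is induced by type I interferon, had 1049, 875, 580.0, 452 and 430.5 in mThy1 mice and 1381, 1100.4, 1099.8, 884 and 1632 in wild-type mice, with a log2 fold change of -0.91, SE 0.27, adjusted p = 0.0697. Sp100, a nuclear body protein, had 4311, 3872, 3486, 2205 and 2687 and 5445, 5327, 4693, 3830.5 and 5772, with -0.63, SE 0.18, adjusted p = 0.0628. Neither passed the test. The IFIT genes had log2 fold changes of -0.78 (Ifit1), -0.38 (Ifit2) and -0.50 (Ifit3), at adjusted p = 0.106, 0.49 and 0.275. Ifi35 did not overlap between the genotypes (662, 690.1, 766, 797 and 797 against 975, 875, 805, 961 and 1215), with a log2 fold change of -0.37, SE 0.11, adjusted p = 0.0517. In all, 7 of the 44 genes had mThy1 mice all below wild-type mice and 0 all above, against 3.49% and 3.78% of all genes.

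Some genes of the list did not share the lower levels. The sensors Ifih1 and Eif2ak2, which encode MDA5 and the kinase PKR, had log2 fold changes of 0.03 (95% interval -0.30 to 0.36) and 0.11 (-0.13 to 0.36). Mx2 had 0.004 (-0.50 to 0.50). Xaf1 and Ifi27l2a were also above 0. Ifi27l2a had 2304, 1407, 1068, 871 and 695 in mThy1 mice and 938, 720, 810, 651 and 1265 in wild-type mice. Its log2 fold change of 0.44 was the largest above 0 after that of Slfn8, and it did not pass the test.

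**Figure D3:**
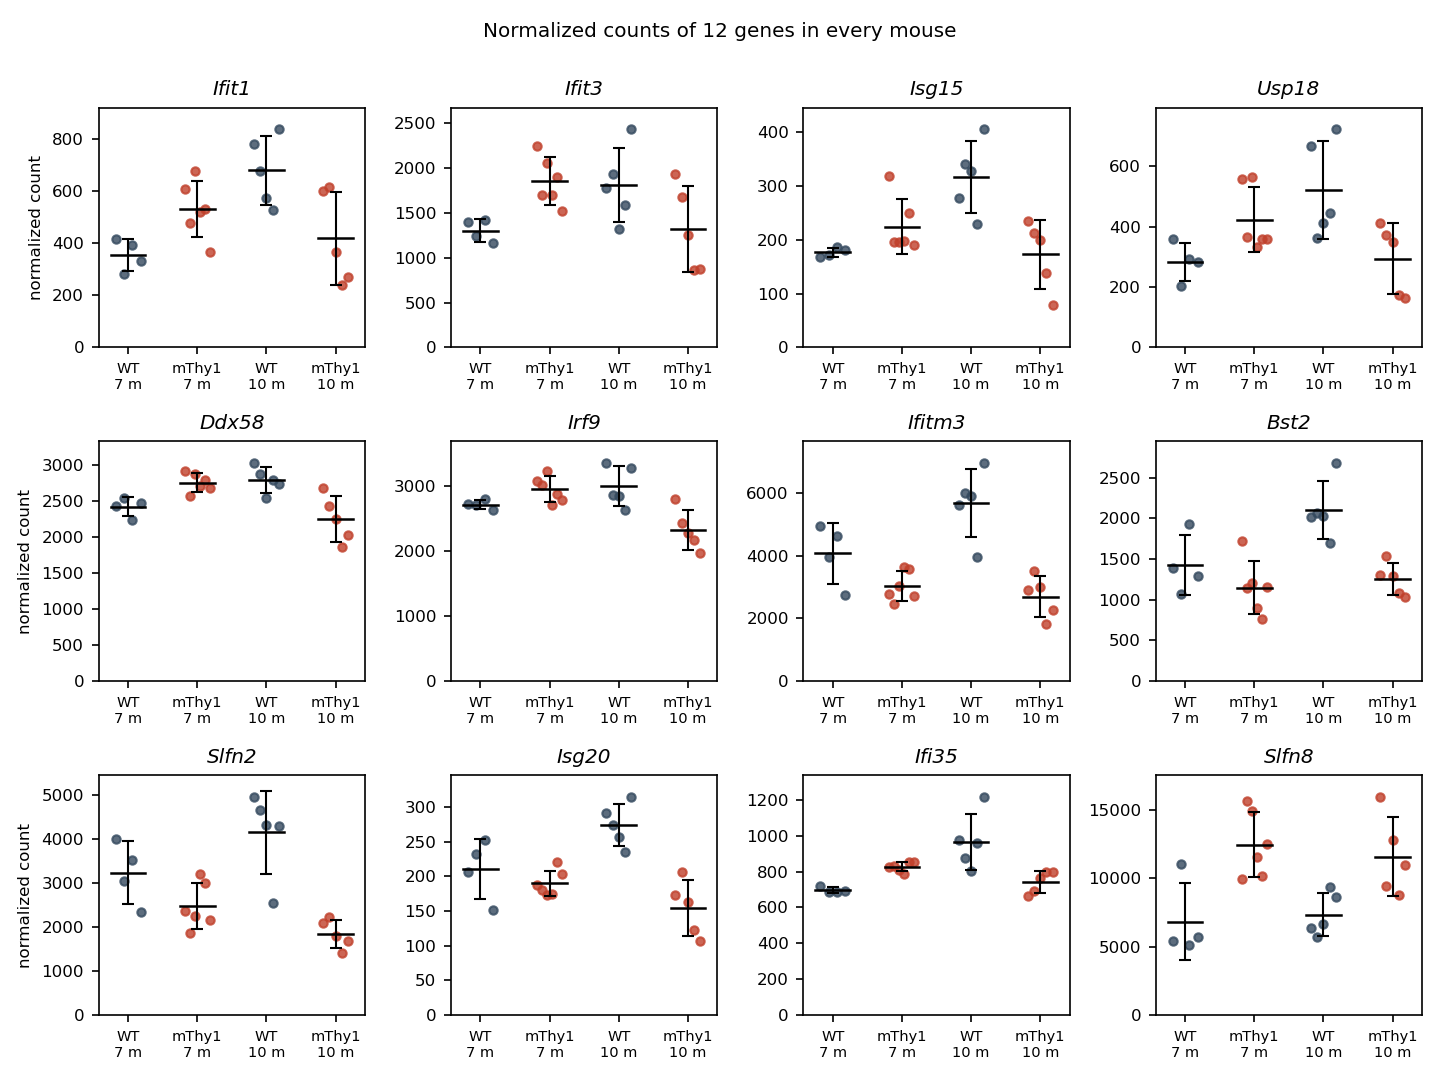
Normalized counts of 12 of the genes in every mouse. Points are mice, red for mThy1 and dark blue for wild-type (WT), at 7 and 10 months (7 m, 10 m), horizontal lines are group means and bars the SD; the y axes start at 0. Ifit1 and Ifit3 are higher on average in mThy1 mice at 7 months, with 1 mThy1 mouse of Ifit1 within the wild-type range, and lower on average at 10 months, while Ifitm3, Bst2, Slfn2 and Isg20 do not overlap between the genotypes at 10 months and overlap at 7 months, and Slfn8 is higher in most mThy1 mice at both ages.

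Slfn8 (chr11:83002158-83020810) lies in the same Schlafen cluster of chromosome 11 as Slfn2 and had log2 fold changes above 0. At 7 months the mThy1 mice ranged from 9991 to 15666, with a median of 12064, and the wild-type mice had 5416, 11037, 5105 and 5719. Wild-type replicate 2 stood far above the other wild-type mice. At 10 months mThy1 mice had 15968, 9420.4, 12826, 8790.1 and 10983 and wild-type mice 6387, 5682, 6687, 9388 and 8652. Its log2 fold change was 0.93, SE 0.23, adjusted p = 0.0555 at 7 months and 0.65, SE 0.18, adjusted p = 0.0576 at 10 months in limma, neither past the cutoff. It passed at 7 months without wild-type replicate 2 (1.18, adjusted p = 0.0018) and at 10 months without mThy1 replicate 4 (adjusted p = 0.0425) or wild-type replicate 4 (0.0298), and DESeq2 gave 0.0246 and 0.00148 at the 2 ages. With border macrophage markers as a covariate the estimate at 10 months turned to -0.26 (adjusted p = 0.996). The adjacent Slfn9, a close copy of Slfn8 that is not among the 44 genes, had 5011, 2634, 3654, 2716 and 3352 in mThy1 and 886, 861, 1492, 2150.5 and 1891 in wild-type mice at 10 months and passed the test with 1.31, SE 0.30, adjusted p = 0.0327. Reads of Slfn8 and Slfn9 may not be fully separable.

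Trim30a and Xaf1 varied more between mice than any other of the 44 genes. Trim30a had 8481, 32506, 32046, 6159.8 and 6557 in mThy1 mice and 25646, 18882, 8064, 8774 and 12599.8 in wild-type mice at 10 months, and Xaf1, a pro-apoptotic binding partner of XIAP, ranged from 492.7 to 3542 over both genotypes at 7 months. High and low mice occurred in both genotypes, and no difference by genotype passed the test (adjusted p = 0.971 and 0.375 in limma).

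The third comparison asked whether the genotype effect at 10 months differs from that at 7 months. It was tested as an interaction, the effect at 10 months minus the effect at 7 months, in a fit of all 20 mice. A value below 0 can arise from a higher level in mThy1 mice at 7 months, a lower level at 10 months or both. Of the 44 genes 8 passed, all below 0, a share of 18.2%, beside 6.6% of 14030 genes tested, 2.73% below and 3.87% above 0. They were Irf9, Isg15, Usp18, Herc6, Ddx58, Ifit1, Ifit3 and Ifi35. The estimate was below 0 in 42 of the 44 genes and above 0 in 2, where 50.4% and 49.6% of all genes lay, with a median of -0.70 beside -0.003 over all genes. At an unadjusted p under 0.05, 28 genes were below 0 and 0 above, against 10.7% and 11.5% of all genes (22.2% in either direction). The count of 8 became 15 without mThy1 replicate 1 of 10 months, 13 without mThy1 replicate 2 and 5 without wild-type replicate 1 of that age. With border macrophage markers as a covariate 0 of the 44 and 86 of all genes passed, and with neutrophil markers 7 and 1137.

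Of the IFIT genes, Ifit1 and Ifit3 passed. Normalized counts of Ifit1 at 10 months were 598, 615, 367, 239.7 and 269.9 in mThy1 mice and 778, 678, 573, 527 and 836 in wild-type mice, after a higher range in mThy1 mice at 7 months. The genotype effect differed by -1.35, SE 0.33, adjusted p = 0.0184 (limma, log2 scale). For Ifit3 the values at 10 months were 1938, 1680.2, 1251, 867 and 875 and 1780.1, 1933, 1320.3, 1583 and 2429.5. Here the ranges overlapped widely, and the effect differed from that at 7 months by -1.0004, SE 0.29, adjusted p = 0.0426. Without any 1 of 15 of the 20 mice Ifit3 no longer passed, with adjusted p up to 0.0822. The 5 whose removal kept the call were mThy1 replicates 4 and 6 of 7 months, mThy1 replicates 1 and 2 of 10 months and wild-type replicate 3 of 10 months.

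All but Trim25 of the ISG15 conjugation genes had an effect that differed between the ages. Usp18 (chr6:121245906-121270917) ranged from 332 to 564, with a median of 362, in mThy1 mice at 7 months against 359, 205, 293 and 282 in wild-type mice. At 10 months the values were 411, 374, 348, 174 and 164 against 668, 362, 411, 445 and 722. The difference of the effects was -1.44, SE 0.38, adjusted p = 0.0268 in limma. It did not pass without wild-type replicate 2 of 7 months (adjusted p = 0.0621) or wild-type replicate 1 of 10 months (0.0557). Isg15 differed by -1.26, SE 0.33, adjusted p = 0.0234, and Herc6 (chr6:57581000-57664632) by -0.48, SE 0.14, adjusted p = 0.0472. Herc6 ranged from 2143 to 2803, with a median of 2654, in mThy1 mice against 2074, 2348, 2027 and 1967 in wild-type mice at 7 months. At the older age the values were 2789, 2582, 2162, 1840.2 and 2114 against 2455, 2629.9, 2209.9, 2847 and 2796. It lost the call in 15 of 20 fits without 1 mouse, at adjusted p up to 0.0891. The call was kept without replicate 2 of either genotype at 7 months, mThy1 replicates 1 or 2 of 10 months or wild-type replicate 3 of 10 months.

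Irf9 and Ddx58 changed by less and varied less between mice. At 7 months Irf9 ranged from 2707 to 3240.0, with a median of 2950.3, in mThy1 mice against 2724, 2708, 2806 and 2643 in wild-type mice, and the effect at 10 months differed from that at 7 months by -0.48, SE 0.12, adjusted p = 0.0168 in limma. Ddx58 differed by -0.51, SE 0.12, adjusted p = 0.0104 and Ifi35 (chr11:101448407-101458698) by -0.62, SE 0.13, adjusted p = 0.00702. Ifi35 and Ddx58 had mThy1 mice above all wild-type mice at 7 months, and at 10 months Ifi35 had them below all wild-type mice. Irf9, Isg15, Ddx58, Ifit1 and Ifi35 passed in all 20 fits that left out 1 mouse. The ages were processed and normalized separately, so age and processing cannot be told apart in this comparison, although each effect is taken within an age.

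**Figure D4:**
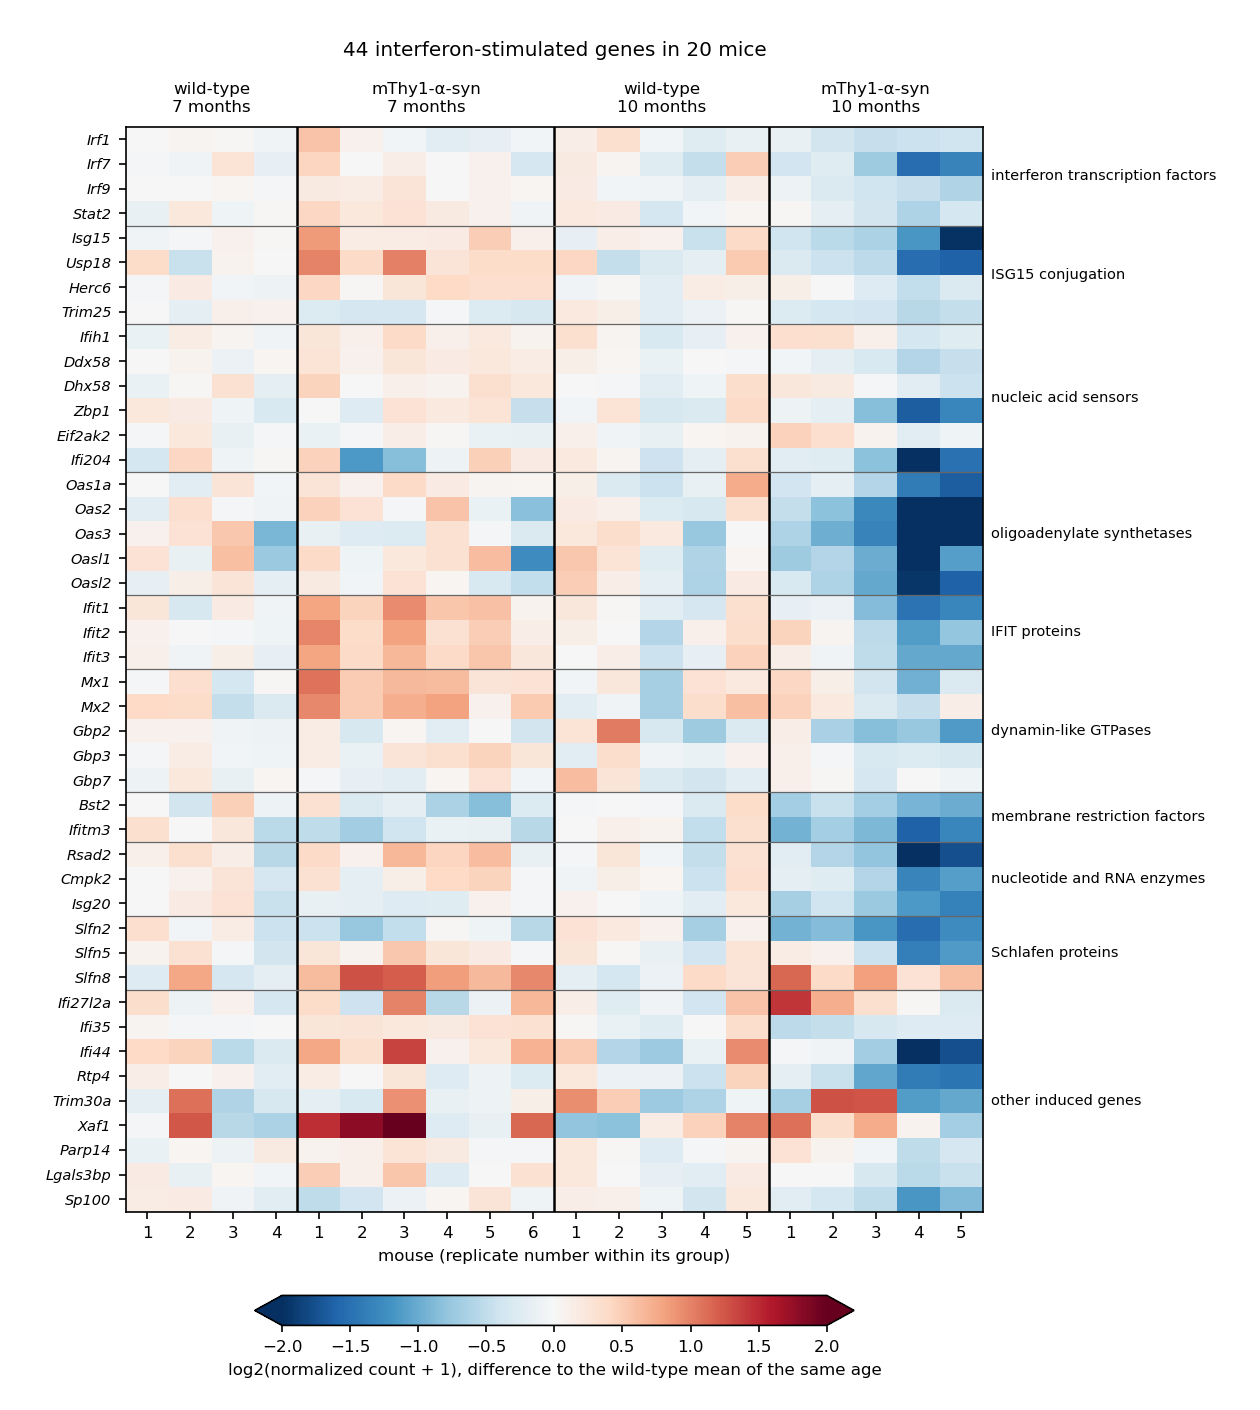
All 44 genes in all 20 mice, with genes as rows grouped by role and mice as columns grouped by genotype and age. Color is the difference of log2(normalized count + 1) to the wild-type mean of the same age, blue for lower and red for higher, clipped at 2. The 10-month mThy1 replicates 4 and 5 are blue in most rows, and replicates 1 and 2 are closer to the wild-type mice.

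The lower levels at 10 months were unequally shared by the mThy1 mice. The median over the 44 genes of the log2 difference to the wild-type mean was -0.12, -0.20, -0.51, -1.07 and -1.01 in mThy1 replicates 1 to 5. In the wild-type mice it was 0.14, 0.06, -0.22, -0.21 and 0.27. Replicates 4 and 5 were below the whole wild-type range in 38 and 35 of the 44 genes, replicate 3 in 31, replicate 2 in 15 and replicate 1 in 8. At 7 months the medians were 0.31, 0.05, 0.25, 0.13, 0.13 and 0.008 in the 6 mThy1 mice and 0.002, 0.09, 0.03 and -0.10 in the 4 wild-type mice. Among the mThy1 mice of 10 months, replicate 4 had the lowest neutrophil (69451), monocyte (14933) and border macrophage sums (19568), replicate 5 the highest neutrophil (151297) and monocyte sums (24910), and replicate 2 the highest border macrophage sum (25096). The part of these cells in the order of the mice was not tested.

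**Figure D5:**
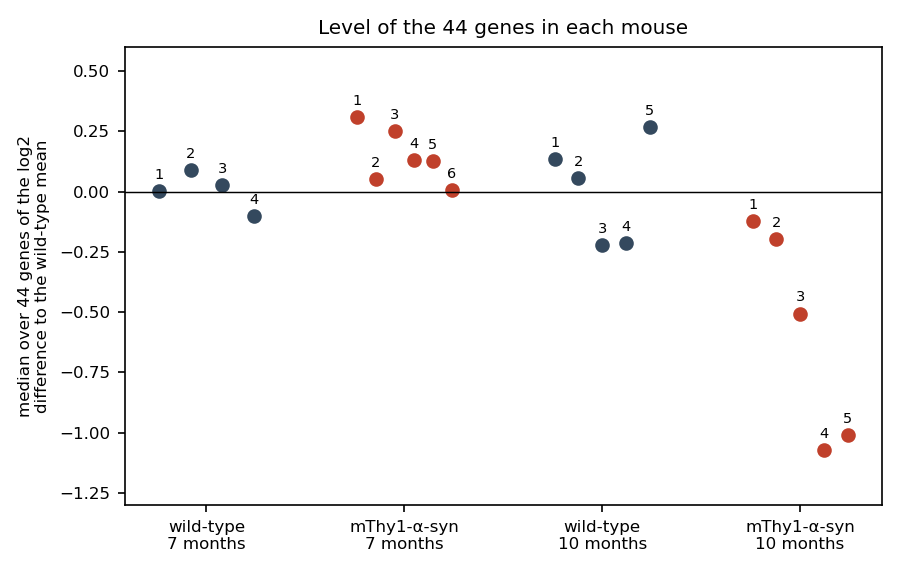
Level of the 44 genes in each mouse. The y axis is the median over the genes of the log2 difference to the wild-type mean of the same age, each point is a mouse with its replicate number. Of the mThy1 mice at 10 months, replicates 4 and 5 lie near -1 and replicates 1 and 2 lie within the wild-type range of -0.22 to 0.27.

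After the group means were taken out, the genes rose and fell together over the 20 mice. The mean correlation over the 946 pairs of the 44 genes was 0.48, with 93.7% of pairs above 0, beside a mean of 0.0004 over all tested genes. Within groups it was 0.22 (mThy1) and 0.18 (wild-type) at the younger age and 0.72 and 0.45 at the older age. The genes of a mouse share its library, its cell makeup and its depth, so these values describe the samples and carry no test. Slfn5 followed the mean of the other genes most closely (r = 0.96), then Ifit3 (0.95) and Irf7 (0.92). Ifi35 (r = -0.16), Slfn8 (0.20), Gbp7 (0.25) and Xaf1 (0.30) followed it least. Bst2, Slfn2 and Ifitm3, which separated the genotypes at 10 months, had r of 0.43, 0.55 and 0.65.

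Upstream of these genes, few or no reads were counted on interferon ligands. Of 21 ligand genes, 16 had no read in any mouse, which allows up to 3 reads among the 1.02e+09 reads of all mice. Only Ifnb1, Ifng and Ifnz reached a normalized count of 10 in any mouse, and none was tested. They had 106, 109 and 40 reads over all mice, found in 16, 15 and 6 mice. The limit of 3 reads covers counting error only. It does not cover reads of the Ifna genes, which are close copies of each other, that were left out because they map to several genes.

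Receptor genes came next in the pathway, and the 2 of 6 that passed at 7 months were higher (33.3%, beside 4.93% of all genes). Ifnar2, a subunit of the type I receptor, ranged from 11241 to 17587, with a median of 15519, in mThy1 mice against 12124, 9013, 10213 and 8779 in wild-type mice, with a log2 fold change of 0.60, SE 0.13, adjusted p = 0.0175 in limma. Ifngr1, a subunit of the type II receptor, ranged from 33396 to 41436, with a median of 37586, against 25810.0, 26433, 30048 and 29972, with 0.42, SE 0.08, adjusted p = 0.0048. All mThy1 mice were above all wild-type mice in Ifngr1, and all but the lowest were in Ifnar2. At 10 months 1 of 6 passed as lower (16.7%, beside 7.67%), Il10rb, a subunit shared by the interferon lambda and interleukin 10 receptors (-0.29, SE 0.08, adjusted p = 0.0445). The effect differed between the ages in 4 of 6 (66.7%, beside 6.6%), all below 0: Ifnar1 (-0.40, SE 0.11, adjusted p = 0.0366), Ifnar2 (-0.52, SE 0.15, adjusted p = 0.0414), Ifngr1 (-0.53, SE 0.12, adjusted p = 0.0131) and Il10rb (-0.53, SE 0.13, adjusted p = 0.0157).

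Among 21 genes of JAK-STAT signaling and its inhibitors, 0 passed at 7 months by limma, where 5 were higher and 2 lower at an unadjusted p under 0.05, beside 4.93% of all genes adjusted and 10.7% and 10.6% unadjusted. At 10 months 1 was lower (4.76%, beside 7.67% of all genes), Stat4, which acts mainly in lymphocytes (-1.13, SE 0.27, adjusted p = 0.0228). In the 20 genes that lead to interferon production, the nucleic acid sensing receptors of endosomes Tlr3, Tlr7 and Tlr9 were higher in mThy1 mice at 7 months, with log2 fold changes of 0.36, 0.61 and 0.54 at adjusted p = 0.00567, 0.00183 and 0.00424. They were 15% of the list, beside 4.93% of all genes. The effect differed between the ages in 1 JAK-STAT gene below 0 (Stat6) and 1 above 0 (Ptpn11), and in Tlr7 and Tmem173 (below 0) and Irak1 (above 0) of the production genes, which is 9.52% and 15% of the lists beside 6.6% of all genes. At 10 months the 3 receptors had -0.01, 0.02 and 0.08, and the adaptor Myd88 was the only gene of that list to pass, as lower (-0.34, SE 0.09, adjusted p = 0.042), which is 5% beside 7.67%.

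A further 70 interferon-stimulated genes outside the 44 were tested. At 7 months 2 were higher, the chemokine gene Cxcl10 and the antibody receptor gene Trim21, and 0 were lower, a share of 2.86% beside 4.93% of all genes. Cxcl10 ranged from 339 to 899.5, with a median of 435, in mThy1 mice against 193, 279, 169 and 190.5 in wild-type mice, a log2 fold change of 1.26, SE 0.25, adjusted p = 0.00967 in limma. At 10 months 5 were lower (Ifi205, Ms4a4b, Ms4a4c, Ifitm2 and Slfn1) and 1, Slfn9, was higher, together 8.57% beside 7.67% of all genes. The log2 fold change was below 0 in 61 of the 70 at 10 months, beside 50.5% of all genes, with a median of -0.21, and the median at 7 months was near 0. The effect differed between the ages in Cxcl10 and Irgm1, below 0, and in Lgals9, above 0, together 4.29% beside 6.6% of all genes. These further genes share the mice of the 44, so their values are not independent of them.

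Several values carry limits of counting. Irf1, Irf7, Irf9, Usp18, Herc6, Dhx58, Oasl1, Ifi35, Rtp4, Slfn5, Sp100, Parp14, Eif2ak2, Gbp2 and Gbp7 share exon bases with another annotated gene. Whether strand was used in counting was not stated, so reads of overlapping genes cannot be told apart. Oas1a, Ifi204, the Gbp genes, Trim30a and Ifit3 have close copies, and their counts are uncertain to the extent that reads map to both.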

How the data were processed

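RNA from microglia of 20 male mice was sequenced in 1 run. The authors trimmed reads with Trim Galore 0.6.7, aligned them to mm10 with HISAT2 2.2.1, and used featureCounts for read counts per gene. The deposited signal values are gene counts divided by a DESeq2 size factor (DESeq2 1.44.0), with each age normalized separately. In every mouse 100% of values below 2000 reads were whole multiples of 1 read's worth within a tolerance of 0.01 reads, and the recovered reads served for depth and for count-based alternatives. Annotation release, strand setting and treatment of multi-mapping reads are not given in the sources used here. At 33404096 or more reads per mouse, counting noise was small beside the differences between mice of a group when averaged over genes. This does not hold for every gene. The wild-type values of Isg15 (168 to 187) and Ifi35 (685 to 719) at 7 months differ by no more than counting noise can give. No 2 libraries of a group agreed within sampling noise.

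Genotypes were compared at each age with limma 3.58.1 after adding a pseudocount of 1 and taking log2. The empirical Bayes step was robust and allowed for a trend with expression. Genes entered when 4 (7 months) or 5 (10 months) mice reached a value of 10. Benjamini-Hochberg adjustment ran over all genes tested, and 0.05 was the cutoff. The interaction used all 20 mice. Fold changes on this scale understate changes of low genes. Alternatives were other pseudocounts, filters and normalizations, edgeR 4.0.16 and DESeq2 1.42.0 on recovered reads, a replicate block, a fit of all mice, each mouse left out and, added after the values were seen, marker covariates. The statistical scripts were tested on simulated data. Positions are from GENCODE vM21 on GRCm38, which is mm10, and promoters from RefSeq on GRCm38.p6. R 4.3.3 and Python 3.11.15 were used.

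The members, the gene lists and the tests were chosen with earlier results of these data known. The text gives values for every gene past the cutoff in any comparison, for further genes in order of p until 20 were reached and for genes whose genotypes do not overlap. Values for Irf7, Oas3, Trim30a, Xaf1, Ifi27l2a and the pathway genes are given in addition. The replicate numbers of the labels were checked for pairing and were not treated as pairs.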

Additional observations from a re-analysis of the deposited data

Results flagged for a closer look

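In groups of 4 to 6 mice, a mouse whose gap to the nearest other exceeded Dixon's critical value for 95% was marked. This was done for the 21 genes described by mouse in each of 4 groups. This marked 6 of 84 gene and group pairs, where chance alone marks about 1 in 20. Irf1 was high in 1 mThy1 mouse at each age, replicate 1, with 4503 normalized counts at 7 months and 3100 at 10 months (the next mice had 3224 and 2643). Trim25 was high in mThy1 replicate 4 at 7 months (3003). Slfn2 was low in wild-type replicate 4 at 10 months (2548), the mouse with the lowest neutrophil marker sum of its group. Ifi35 was high in wild-type replicate 1 at 7 months (719.0) by a gap that was small beside the difference between genotypes. That gap was near the size of counting noise. Slfn8 was high in wild-type replicate 2 at 7 months, at 11037 against 5105 to 5719 in the other wild-type mice.

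The genotype effect differed between the ages by the interaction test in 8 of the 44 genes, all below 0. The differences on the log2 scale were -0.48 (Irf9), -1.26 (Isg15), -1.44 (Usp18), -0.48 (Herc6), -0.51 (Ddx58), -1.35 (Ifit1), -1.0004 (Ifit3) and -0.62 (Ifi35). In each of the 8 the estimate was above 0 at 7 months and below 0 at 10 months.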

How the results depend on the processing

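Alternatives were run for the counts and for the 21 genes described by mouse, not for single pathway or marker genes. No call among the 21 changed direction. Slfn8 at 10 months, which was not called, turned from 0.65 to -0.26 with border macrophage markers as a covariate. At 7 months the number of all genes past the cutoff was 684 and became 1158 with DESeq2, 414 with the replicate block and 54 with lymphocyte markers as a covariate. Of the 44 genes 1 was higher, and this count became 2 with a pseudocount of 5, a filter of 50, edgeR with TMM or RLE, log2 CPM with TMM or neutrophil markers as a covariate, 6 with DESeq2, 4 with the replicate block and 0 with lymphocyte markers. At 10 months the 1045 genes became 1694 with DESeq2 and 19, 14 and 4 with neutrophil, lymphocyte and border macrophage markers. The 10 lower genes of the 44 became 6 with no filter, 20 with DESeq2, 16 with the replicate block, 19 in the fit of all 20 mice and 0 with each of the 3 covariates, and with DESeq2 1 gene was higher. In the difference between the ages, 926 genes became 481 with the replicate block and 86 with border macrophage markers, and the 8 genes of the 44 became 14 with DESeq2 and 0 with border macrophage markers. The cause of these changes was not tested.

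Without 1 mouse at a time, the counts at 7 months ranged from 280 (without wild-type replicate 1) to 860 over all genes, with 376 without wild-type replicate 3 and 443 without wild-type replicate 2, from 1 to 3 for higher and from 0 to 1 for lower genes of the 44. At 10 months they ranged from 497 (without wild-type replicate 2) to 1235 over all genes, from 5 to 12 for lower and from 0 to 1 for higher genes of the 44. All genes numbered 582, 560 and 574 without mThy1 replicates 1, 3 and 5, and 579, 670 and 604 without wild-type replicates 1, 3 and 5. For the difference between the ages the 44 genes gave 5 to 15. The median over the 44 genes ranged from 0.09 to 0.19, from -0.69 to -0.38 and from -0.76 to -0.55 in the 3 comparisons. Further genes that passed without 1 mouse were, at 7 months, Ifit1 (0.0233, mThy1 replicate 6), Ifit2 (0.039 and 0.0188, mThy1 replicates 4 and 6), Herc6 (0.0279, mThy1 replicate 2), Mx1 (0.0455, mThy1 replicate 5) and, as lower, Trim25 (0.0317 and 0.0483, mThy1 replicate 4 and wild-type replicate 2), by limma's adjusted p. At 10 months they were Sp100 and Rtp4 (without mThy1 replicate 1 or wild-type replicate 4), Ifit1 (mThy1 replicate 2), Oas2 (mThy1 replicate 4) and Ifi35 (wild-type replicate 3), all lower, and in the difference between the ages Ifit2, Rtp4 and Oas2 (without mThy1 replicate 1 of 10 months).

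Same-numbered mice of the 2 genotypes did not deviate together: the correlations were -0.134, -0.025, 0.032 and -0.018 at 7 months and at most 0.0995 at 10 months, so the numbers were not taken as pairs. With the replicate block Isg15 at 10 months lost the cutoff (adjusted p = 0.0626), and so did Isg15, Usp18, Herc6 and Ifit3 in the difference between the ages. Another scaling moved the median of all genes by at most 0.0112 on the log2 scale, and another filter on low values by at most 0.0298. For the average gene, the number of mice, 4 to 6 a group, and the spread between them limit what can be detected more than depth does.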
